A study of Gallus gallus with 3 samples.

Results

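The genes described here are 2 lists that are widely used to score the cell cycle in single-cell data. The S list holds genes that are transcribed around DNA replication, and the G2/M list holds genes of chromosome condensation, spindle assembly and exit from mitosis. Members were taken by symbol from a list of 42 genes, of which 38 are among the 24356 features of the chicken annotation used for the libraries. They comprise 16 of 18 S genes and 22 of 24 G2/M genes. TYMS, RRM2, MKI67 and AURKB have no row under these symbols and were not analysed here.

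The data are single-cell RNA-sequencing counts of whole forelimbs from wild type chicken embryos at embryonic days 4, 6 and 10 (E4, E6 and E10). Cells of 2 E4, 3 E6 and 3 E10 embryos were pooled by stage before 1 library per stage was made with the 10x Single Cell 3' v3 kit. The comparison across stages asks how the cell cycle programme changes while limb muscle and connective tissue form. With 1 library per stage, stage, embryo pool and library cannot be told apart, no test between groups is possible, and every interval below covers counting error only.

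Cells advance through DNA replication and mitosis by switching successive sets of genes on and off. E2F factors drive the replication genes around the entry into S phase, whereas mitotic genes accumulate later and are cleared as cells divide. In the limb, mesenchymal progenitors and PAX7+ muscle progenitors divide, whereas differentiating MYOG+ myocytes leave the cell cycle before they fuse.

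A barcode was called a cell from 1000 UMIs (unique molecular identifiers, each standing for 1 captured transcript) at E4, 700 at E6 and 450 at E10. By this minimum 5235, 4237 and 27361 cells were called, with a median of 3645, 2216 and 1081 UMIs. Libraries held 22765180, 15004113 and 46497874 UMIs, and haemoglobin genes took between 0.0447% (E6) and 1.5% (E10) of those in cells. The E4 and E10 libraries had more called cells than the 5000 stated as loaded per stage. Between 13 and 35 cell barcodes were found in each pair of libraries, and 0 in all 3. Each cell was thinned to 450 UMIs so that stages and groups were compared at equal depth. Levels are UMIs per 1000000 UMIs of the cells in question (CPM), with an exact Poisson 95% interval. Intervals of levels and ratios treat UMIs as independent, but members were clustered in cells. At E10 62.7% of cells had 0 G2/M UMIs and 1.94% had 10 or more. The spread between cells is therefore left out, and intervals that do not overlap are no test of a difference. Because 3' UMI counts are not scaled by length, levels are compared between samples and not between genes.

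Both lists were highest at E4. In stage order, the S genes summed to 2483 CPM (2420 to 2548), 1448 (1394 to 1503) and 1362 (1341 to 1383). The G2/M genes summed to 4666 CPM (4580 to 4755), 2266 (2199 to 2335) and 2729 (2700 to 2759). The S sum was therefore lowest at E10 and the G2/M sum at E6, and none of the 3 stages overlapped in either list. From E4 to E6 the log2 ratio was -0.78 (-0.84 to -0.71) for the S genes and -1.04 (-1.09 to -0.99) for the G2/M genes. From E6 to E10 it was -0.09 (-0.15 to -0.03) and 0.27 (0.22 to 0.31).

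The later of these 2 steps depended on which barcodes were called cells. With a minimum of 1000 UMIs at every stage the E10 over E6 ratio was 0.093 for the S genes and 0.59 for the G2/M genes, and with a minimum of 2000 it was 0.20 and 0.94. With that higher minimum the G2/M sum at E10 also lay above the one at E4, with a log2 ratio of 0.19 in place of -0.77. A minimum of 2000 lies below the median UMIs of E4 and E6 cells (3645 and 2216) but above that of E10 cells (1081). It thus keeps only the deeper E10 cells, and at E10 cells with more G2/M UMIs were deeper. The part of this unequal selection in the ratios was not tested. The lower level at E6 than at E4 was found under every cell minimum, at -0.55 for S and -0.76 for G2/M with 2000 UMIs.

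The share of cells with members followed the sums. At least 1 S UMI was found in 62.5%, 40.6% and 38.3% of cells by stage, and at least 1 G2/M UMI in 61.5%, 36.4% and 37.3%. Cells with 3 or more G2/M UMIs made up 31.3%, 14.0% and 16.1%. Neither list was detected in 17.2%, 40.8% and 43.0% of cells. For comparison, the 356 E10 cells with at least 50% haemoglobin UMIs had an S UMI in 3.09% and a G2/M UMI in 6.74%, at a median of 1326 UMIs. Their levels were 74.9 CPM for the S genes and 187 CPM for the G2/M genes, far below those of the other E10 cells. Haemoglobin UMIs stayed in the totals, so choosing cells by at least 50% of them lowers the level and detection of every other gene. Part of the low values in these haemoglobin-rich cells is thus set by the selection, and the size of that part was not tested. Only 7 and 1 such cells were found at E4 and E6, so that this comparison was not made there. Of the 7 at E4, 3 held UMIs of both lists and 2 of neither. In barcodes of 10 to 100 UMIs, below the size of cells, the S genes were at 2757, 1426 and 1278 CPM by stage and the G2/M genes at 4585, 2084 and 2687 CPM, close to the levels in cells.

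**Figure D1:**
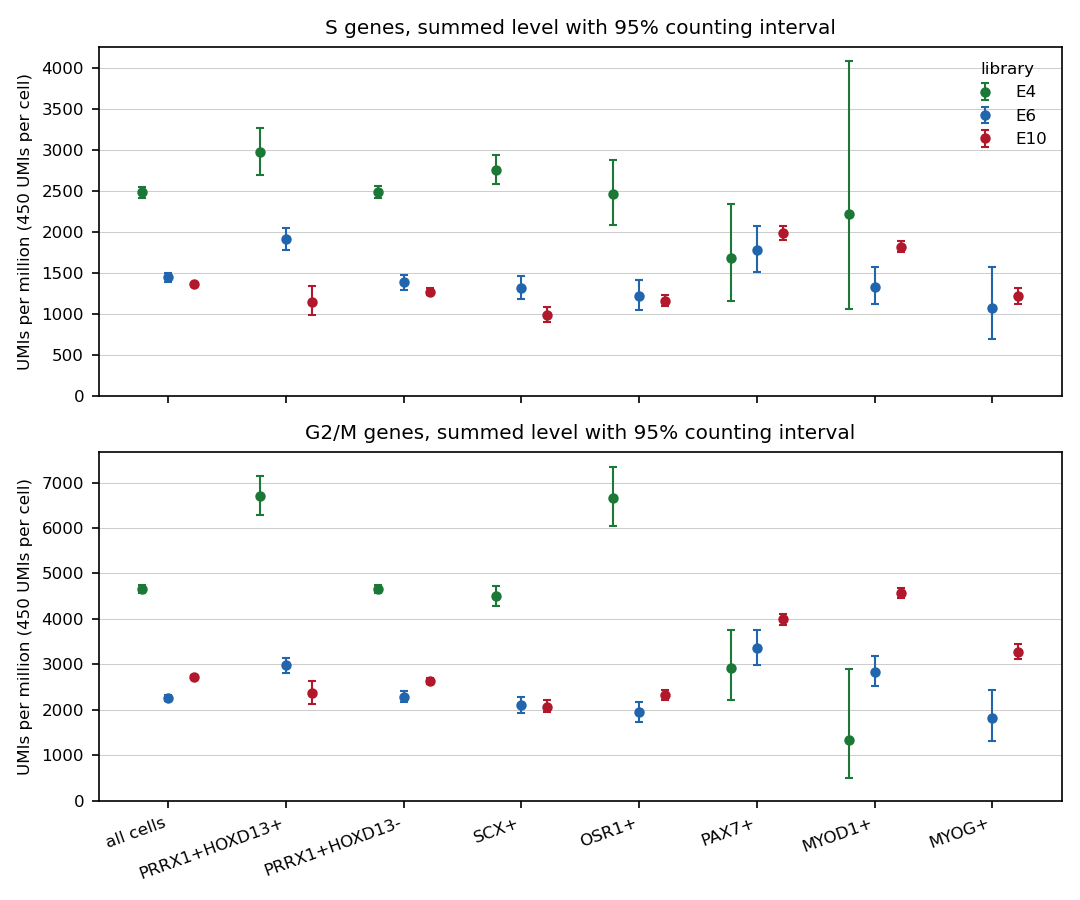
Summed level of the S genes (top) and the G2/M genes (bottom) in CPM at 450 UMIs per cell, for all cells and for marker positive cells of each library. Points are levels and bars are exact Poisson 95% intervals. In all cells the E4 points (2483 and 4666) lie above both later stages, whereas in PAX7+ cells the E4 points (1679 and 2914) have wide intervals and do not lie above E10 (1982 and 3995).

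Among the S genes, the origin licensing and helicase group comprises MCM2 to MCM6, which form part of the replicative helicase, CDC6, which loads it, and CDC45 and GINS2, which activate it. This group summed to 967, 621 and 541 CPM by stage. MCM2 was at 242 CPM (223 to 263), 143 (127 to 161) and 118 (112 to 124), and MCM5 at 191 (173 to 209), 131 (115 to 148) and 93.1 (87.8 to 98.6). Both were lower at each later stage and their intervals did not overlap. CDC6 had the lowest E10 over E4 ratio of the S list, with 31.8 CPM (25.0 to 39.9) at E4, 15.2 (10.2 to 21.8) at E6 and 13.2 (11.2 to 15.3) at E10. MCM6 was among the least changed S genes, at 218 CPM (199 to 237) at E4 and 154 CPM at both later stages. GINS2 gave only 7, 2 and 4 UMIs in the cells of the 3 libraries before thinning, and no ratio is given for it.

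The replication fork and chromatin group (PCNA, FEN1, CHAF1B and UHRF1) was at 1223, 685 and 657 CPM. PCNA, the sliding clamp of DNA polymerases, held 25.4% of all S UMIs. In stage order it was at 693 CPM (660 to 728), 405 (377 to 435) and 329 (318 to 339), and was lower at each later stage. UHRF1, which directs DNA methylation to newly copied DNA, followed another course and was higher at E10 than at E6. Its levels were 331 CPM (308 to 355), 175 (156 to 194) and 223 (215 to 232). RRM1, the large subunit of ribonucleotide reductase, was at 183, 92.8 and 98.1 CPM. CHAF1B, a histone chaperone subunit, was at 19.95 CPM (14.7 to 26.5), 12.6 (8.07 to 18.7) and 14.1 (12.0 to 16.3), with overlapping intervals of neighbouring stages. Of the checkpoint and repair genes, the helicase BRIP1 had the highest E10 over E4 ratio of the list, at 21.6 CPM (16.1 to 28.5), 9.44 (5.60 to 14.9) and 17.8 (15.5 to 20.3).

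All 5 role groups of the G2/M list were lowest at E6. Chromosome structure (TOP2A and the condensin subunit SMC4) was at 967, 425 and 545 CPM, the kinetochore and centromere group at 1223, 594 and 732, and the spindle and midzone group at 1292, 614 and 758. TOP2A, the topoisomerase that untangles sister chromatids, was at 761 CPM (726 to 797), 334 (309 to 361) and 391 (380 to 402) by stage. CDK1, the kinase that drives entry into mitosis, was at 373 CPM (349 to 399), 213 (193 to 235) and 213 (205 to 221), so that E6 and E10 did not differ beyond counting error. Its cyclin partner, named CCNB2 in the files and listed in the RefSeq table as a synonym of CCNB1 in chicken, was at 200 CPM (182 to 219), 111 (96.2 to 127) and 121 (115 to 127), and the later stages overlapped here too. The anaphase promoting complex drives exit from mitosis. Its activator CDC20 was at 159 CPM (143 to 176), 88.6 (75.8 to 103) and 97.8 (92.3 to 103), and its ubiquitin-conjugating enzyme UBE2C at 182 (165 to 200), 102 (88.4 to 118) and 129 (123 to 136). UBE2C was higher at E10 than at E6, and CDC20 overlapped.

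The G2/M genes with the lowest E10 over E4 ratio were the spindle factor TPX2 with -1.13, the spindle checkpoint kinase TTK with -1.12 and the kinetochore gene NUF2 with -1.03. TPX2 was at 408 CPM (383 to 435) at E4, 205 (185 to 226) at E6 and 186 (179 to 194) at E10. TTK was at 59.9 CPM (50.4 to 70.6), 24.1 (17.7 to 32.2) and 27.5 (24.7 to 30.6), and NUF2 at 131 (117 to 146), 60.8 (50.3 to 73.0) and 64.2 (59.8 to 68.8). The highest ratios were those of UBE2C with -0.49, the spindle gene NUSAP1 with -0.47 and SMC4 with -0.41. NUSAP1 went from 166 CPM (150 to 184) at E4 through 75.0 (63.2 to 88.3) at E6 to 120 (114 to 127) at E10, and SMC4 from 205 (188 to 225) through 90.7 (77.7 to 105) to 154 (148 to 162). These 3 genes were thus lower at E10 than at E4 but above their E6 level, with counting intervals that did not overlap. CKS2, a small CDK binding protein, had 7, 8 and 7 UMIs in the cells of the 3 libraries and is given no ratio.

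From E4 to E6, 13 of 15 S genes with at least 50 UMIs were at least 1.5-fold lower and 0 were higher. The same held for 20 and 0 of 21 G2/M genes. Of all 7012 genes with that many UMIs, 13.9% were lower and 12.7% higher by that size. The median log2 ratio was -0.92 for the S genes and -1.10 for the G2/M genes, beside -0.11 over all genes. CENPA, the histone variant of centromeres, was the G2/M gene that was not lower, at 42 CPM (34.2 to 51.2) at E4 and 46.7 (37.5 to 57.4) at E6.

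From E6 to E10, 1 of 15 S genes was at least 1.5-fold higher (BRIP1, log2 ratio 0.91) and 0 were lower. Of 21 G2/M genes, 4 were higher (SMC4 0.77, NUSAP1 0.68, CENPF 0.60 and CENPE 0.59) and CENPA was lower (-0.70). Over all 9622 genes 17.3% were higher and 11.2% lower, so that neither list stood apart from the background by this count. The median was 0.00 for the S genes, 0.22 for the G2/M genes and -0.01 over all genes. CENPF and CENPE act at the kinetochore, and CENPF was at 489 CPM (461 to 518), 199 (179 to 220) and 301 (292 to 311) across the 3 stages.

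**Figure D2:**
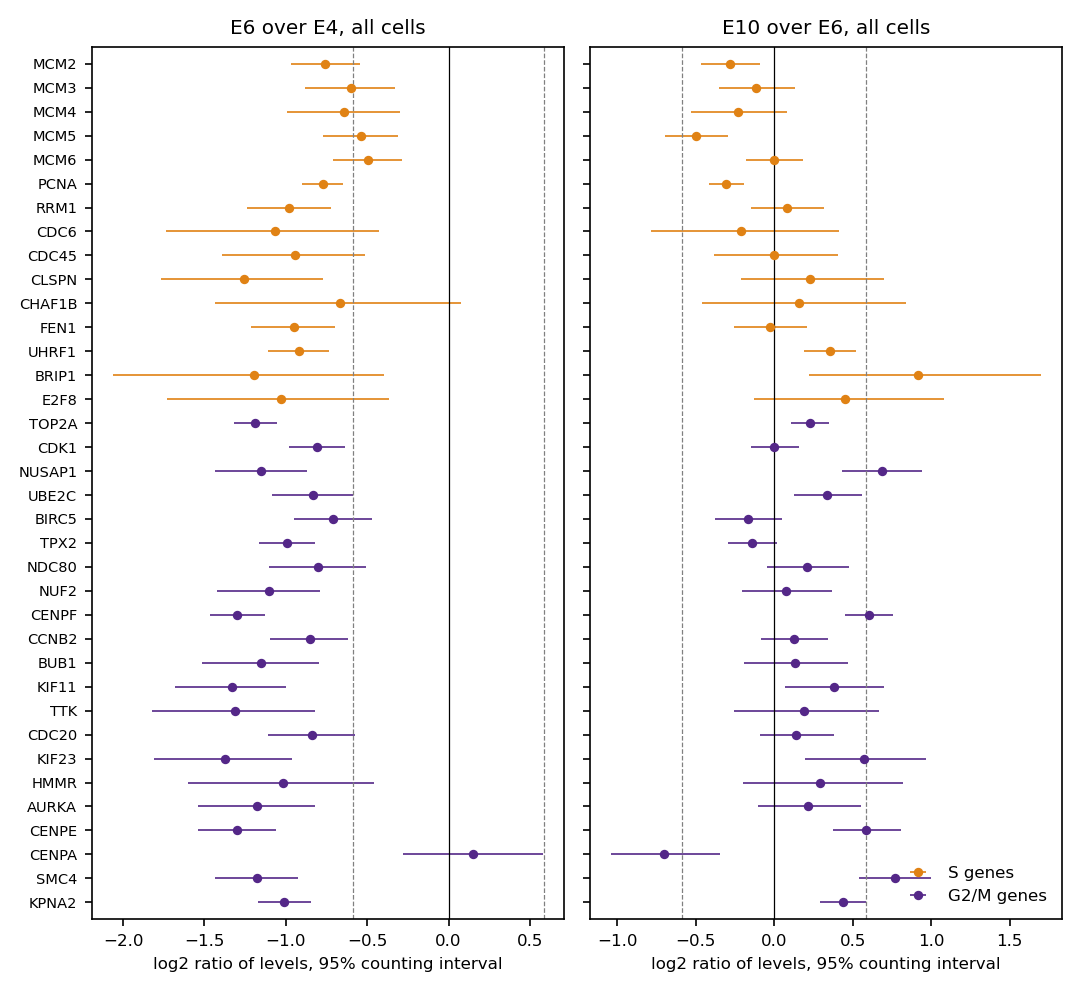
Log2 ratio of the level of each member between successive stages, in all cells at 450 UMIs per cell. Bars are exact 95% counting intervals and dashed lines mark 1.5-fold. At the left 13 of 15 tested S genes and 20 of 21 tested G2/M genes lie below the lower dashed line, and at the right most members lie between the lines.

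Other cell cycle genes, chosen as further members of the same programmes, were also mostly lower at E6 than at E4. Of all genes, 13.9% were at least 1.5-fold lower and 12.7% higher from E4 to E6. Of the other S genes 14 of 21 were lower by that size, and of the other G2/M genes 23 of 27, and 0 of either were higher. The ends of these lists were EXO1 (-2.13), a repair exonuclease, and DNMT1 (0.35), the maintenance DNA methyltransferase, and ECT2 (-1.46), a regulator of cytokinesis, and TUBB4B (-0.10), a tubulin. The mitotic kinase PLK1 went from 225 CPM through 111 to 120 by stage, and HMGB2 from 1396 to 709 and 630. The G1 cyclins behaved differently. CCND1 was at 331, 302 and 299 CPM, and CCND2 at 154, 167 and 215, so that neither moved past 1.5-fold at either step. Of the 13 tested genes among cyclins, E2F and related factors, 4 were lower from E4 to E6 and 0 higher, with FOXM1, a transcription factor of mitotic genes, at -1.52 and CCND2 at 0.12 at the ends. CCNE2 was at 20.8, 7.87 and 9.67 CPM, E2F1 at 31.4, 30.9 and 39.7, and CCNA2 gave only 11 UMIs at E4 and 5 at E6 after thinning.

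Of 9 tested genes of cell cycle exit, 2 were at least 1.5-fold higher and 0 lower from E4 to E6, and 2 and 0 from E6 to E10, beside 12.7% and 17.3% of all genes that were higher at these steps. In PRRX1+ cells 2 were higher and 2 lower from E4 to E6, beside 757 higher and 919 lower of all 6290 tested genes. The first step ranged from RBL1 (-0.55), a relative of the retinoblastoma protein, to GADD45B (1.01), a stress response gene, and the second from RBL1 (0.16) to the antiproliferative gene BTG2 (1.09). CDKN1B, which encodes the CDK inhibitor p27, was at 85.3, 98.6 and 135 CPM, and BTG1, a relative of BTG2, at 204, 276 and 390. CDKN1A gave 2, 1 and 34 UMIs. From E6 to E10, 1 of 22 other S genes was higher (EXO1, 0.91) and 1 lower (GINS1, -0.64), and 1 of 29 other G2/M genes was higher (ASPM, 0.62) and 2 were lower, with CKS1B lowest at -1.65. Of 15 cyclin and E2F genes 2 were higher and 0 lower, from E2F5 (-0.45) to CCNA2 (1.29). Over all genes 17.3% were higher and 11.2% lower from E6 to E10.

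To see whether the lists behaved as cell cycle phases in these cells, the UMIs of the other members were compared between cells with and without a UMI of each gene. At E10 cells with KPNA2, an importin that binds spindle factors, held 6.47 times as many other G2/M UMIs as cells without it. The ratio was 6.13 for CENPF, 5.32 for CENPE and 5.30 for CDC20, and the lowest ratios of the list were 2.13 for CENPA and 3.19 for SMC4. The same genes were much less tied to the S list, with 1.18 for KPNA2 and 0.93 for CDC20. S genes with a UMI in at least 100 cells had 1.49 to 2.49 times as many other S UMIs. At E4 the ratios were lower in both lists. Cells without a gene held more members there than at E10. Cells with KPNA2 held 4.51 other G2/M UMIs at E4 and 4.75 at E10, and cells without it 1.45 and 0.73. The lower ratios are thus no measure of weaker ties between the genes. S genes found in at least 100 cells there had ratios of 1.11 (FEN1) to 1.34 (MCM3), and the G2/M ratio was 1.18 for CENPA and 3.11 for KPNA2. At E10 the S list was itself split by its relation to G2/M. Cells with MCM2, MCM5 or MCM4 held 0.55, 0.63 and 0.63 times as many G2/M UMIs as cells without, whereas cells with CDC45 held 2.29 and cells with UHRF1 2.07 times as many. At E4 the ratio was 0.60 for MCM2, 0.76 for MCM5, 1.29 for UHRF1 and 1.49 for CDC45, and at E6 it was 0.52, 0.76, 2.27 and 1.73 in the same order of genes. These ratios describe cells of 1 library, and cells with more UMIs before thinning held more members. At E10 the median was 1367 UMIs in cells with 3 or more G2/M UMIs and 1003 in cells with none, at E6 2785 and 2091, and at E4 4354 and 3167.

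**Figure D3:**
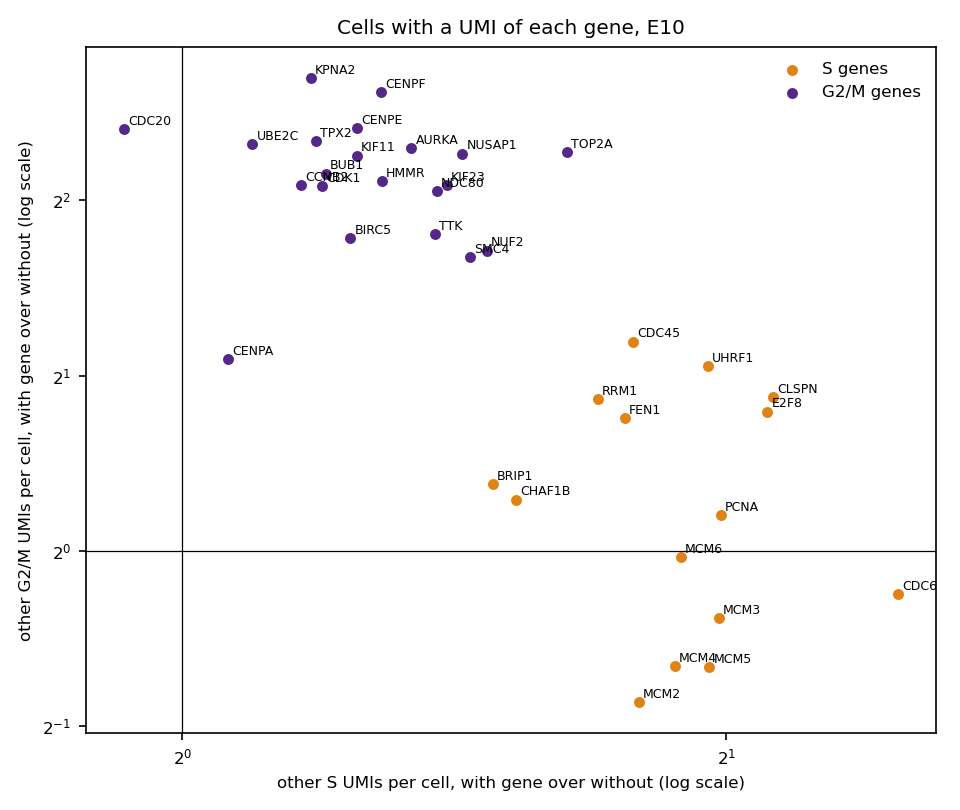
For each member at E10, the ratio of other S UMIs per cell (horizontal, log scale) and of other G2/M UMIs per cell (vertical, log scale) between cells with and without a UMI of that gene, at 450 UMIs per cell. All G2/M genes plotted lie above 2 on the vertical axis, and MCM2 to MCM6 and CDC6 lie below 1 on it while lying right of 1 on the horizontal axis.

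The lists were then followed in cells that carried lineage markers. A cell counted as positive with at least 1 UMI of the marker among all its UMIs, so that shallow cells are missed more often. The markers were PRRX1 for limb mesenchyme, HOXD13 for its distal part, SCX for tendon and OSR1 for irregular connective tissue. PAX7 marks muscle progenitors, MYOD1 committed myoblasts and MYOG differentiating myocytes. At E4 other markers did not bear out all of these names. After thinning, SCX+ cells there had 0 UMIs of the tendon gene TNMD and PRRX1 at 1311 CPM. OSR1+ cells had PRRX1 at 1513 CPM, and the 10 MYOD1+ cells had 0 UMIs of the muscle markers. The 45 PAX7+ cells had 7 UMIs of the muscle markers, all of PAX7 itself. Connective tissue genes were at 444 CPM in these PAX7+ cells, beside 2554 in all E4 cells. In PRRX1+ cells the log2 ratio from E4 to E6 was -0.66 for S and -0.91 for G2/M. From E6 to E10 it was -0.33 (-0.42 to -0.25) for S and 0.04 (-0.03 to 0.10) for G2/M. PAX7+ cells showed no lower level at the later stage, with 0.15 (-0.08 to 0.40) for S and 0.25 for G2/M from E6 to E10. In bulk sums of this kind fewer cycling cells and less cell cycle RNA per cycling cell cannot be told apart.

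At E4 the order by G2/M level was PRRX1+HOXD13+ (6695 CPM, 316 cells), OSR1+ (6667, 141 cells), PRRX1+HOXD13- (4657, 4249 cells), SCX+ (4494, 800 cells) and PAX7+ (2914, 45 cells). The first pair and the second pair had overlapping intervals within each pair. At E6 PAX7+ cells were highest with 3361 CPM (2994 to 3761), next to PRRX1+HOXD13+ cells with 2978 (2815 to 3148) and MYOD1+ cells with 2831 (2516 to 3174), all with overlapping intervals. SCX+, OSR1+ and MYOG+ cells were between 1811 and 2102 CPM and overlapped. At E10 the muscle groups led, with 4577 CPM (4471 to 4686) in MYOD1+, 3995 (3874 to 4119) in PAX7+ and 3278 (3121 to 3440) in MYOG+ cells, none of which overlapped. PRRX1+HOXD13-, PRRX1+HOXD13+ and OSR1+ cells followed at 2632, 2380 and 2325 CPM, and SCX+ cells were lowest at 2072 (1943 to 2207). The S genes gave a different order at E10, with 1982 CPM in PAX7+, 1818 in MYOD1+ and 1215 in MYOG+ cells, the last within the range of the connective groups (984 to 1268). The groups are not separate sets of cells: of the 1118 MYOG+ cells at E10, 691 also carried MYOD1 and 59 PAX7. MYOD1+ cells were 10 and MYOG+ cells 0 at E4. These orders as a whole were not matched on UMIs per cell. Some pairs of groups are compared below with UMIs per cell matched. The G2/M ratio of PRRX1+HOXD13+ over PRRX1+HOXD13- cells was then smaller at E4 and at E6. Outside these pairs the part of depth was not tested.

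Splitting the E10 muscle cells by combinations of markers gave 5 states. The G2/M sum was 3696 CPM (3560 to 3836) in PAX7+MYOD1-MYOG- cells, 4869 (4603 to 5147) in PAX7+MYOD1+MYOG- cells and 4776 (4638 to 4916) in PAX7-MYOD1+MYOG- cells. It was 3724 (3513 to 3945) in MYOD1+MYOG+ cells and 2555 (2334 to 2792) in MYOD1-MYOG+ cells. Of these states, those with MYOD1 and without MYOG thus had the highest G2/M sums. UMIs per cell were not matched between the states, and at E10 cells with more G2/M UMIs were deeper before thinning. The part of depth in these sums was not tested. The S sum in the same order was 1956, 2090, 1917, 1290 and 1093 CPM, with overlapping intervals among the 3 states without MYOG and between the 2 states with it. For each S UMI there were 2.01 G2/M UMIs (1.90 to 2.12) in PAX7+MYOG- cells and 2.70 (2.46 to 2.97) in MYOG+ cells.

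Both lists were lower in MYOG+ than in PAX7+MYOG- cells at E10, S genes more so. The S genes were at 1215 CPM (1120 to 1315) against 1990 (1904 to 2079), a log2 ratio of -0.71 (-0.85 to -0.58), and the G2/M genes at 3278 against 3994 (3872 to 4120), a ratio of -0.29 (-0.37 to -0.20). The 2 intervals did not overlap. PCNA was at 274 CPM in MYOG+ cells and 543 in PAX7+MYOG- cells, with a ratio of -0.99 (-1.27 to -0.71). The helicase genes were lower by as much, with -1.33 (-1.94 to -0.76) for MCM5, -1.03 (-1.51 to -0.58) for MCM6 and -0.99 (-1.48 to -0.52) for MCM2. CDC6 had -1.32 on 24 UMIs, and its interval included 0. The S genes at the upper end were RRM1 (-0.27), E2F8 (0.08), which encodes a repressor of E2F targets, and BRIP1 (0.37), all with intervals that included 0.

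Mitotic genes differed from one another in the same cells. KIF23, a kinesin of the central spindle, had -1.08 (-1.94 to -0.30), the kinetochore gene NDC80 -0.75 (-1.32 to -0.20), NUSAP1 -0.65 (-1.10 to -0.21) and TOP2A -0.40 (-0.63 to -0.17). CDK1 was at 338 CPM in MYOG+ and 309 in PAX7+MYOG- cells with a ratio of 0.13 (-0.15 to 0.40), and CENPF at 398 and 388 CPM with 0.04 (-0.22 to 0.29). UBE2C (0.32, -0.04 to 0.67), the spindle kinase AURKA (0.38, -0.16 to 0.91) and CENPA (0.38, -0.39 to 1.13) had the highest ratios, and none of these intervals left out 0. In all, 6 of 10 S genes and 3 of 20 G2/M genes were at least 1.5-fold lower in MYOG+ cells and 0 of either were higher, beside 17.8% lower and 11.2% higher among all 4155 genes. The median was -0.65 for S, -0.40 for G2/M and -0.08 over all genes.

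**Figure D4:**
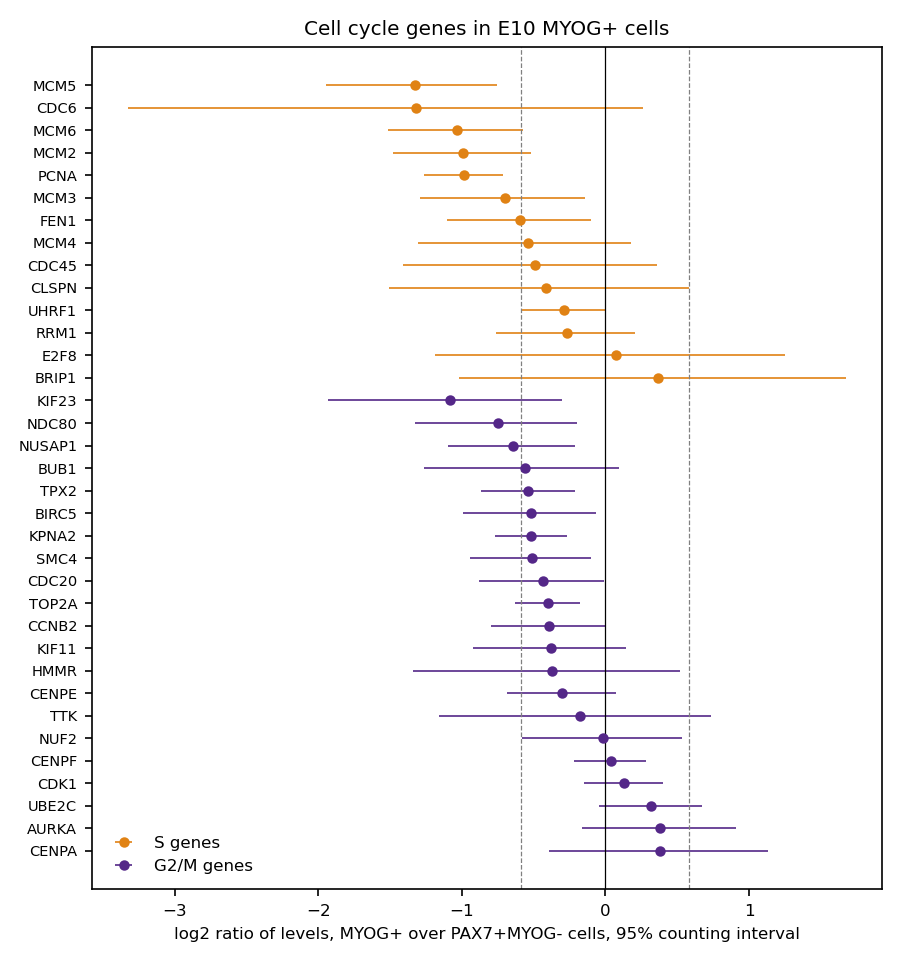
Log2 ratio of the level of each member with at least 20 UMIs between MYOG+ and PAX7+MYOG- cells at E10. Bars are exact 95% counting intervals and dashed lines mark 1.5-fold. MCM5, MCM6, MCM2 and PCNA lie at -0.99 or below, and CDK1, CENPF, UBE2C, AURKA and CENPA at or right of 0.

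The exit genes moved the other way in this contrast. CDKN1B was at 517 CPM in MYOG+ cells and 81.3 in PAX7+MYOG- cells, a log2 ratio of 2.67 (2.30 to 3.04), GADD45G at 219 and 30.7 CPM (2.83) and BTG1 at 610 and 225 CPM (1.44). Over all 4155 genes 11.2% were at least 1.5-fold higher and 17.8% lower in this contrast. Of 8 tested exit genes 4 were higher and 0 lower by that size, and RBL2 was lowest with -0.52. E2F1 was higher too, at 75.5 and 35.7 CPM with a ratio of 1.08 (0.38 to 1.78), while CDK6, a G1 kinase, was lowest of the 5 tested cyclin and E2F genes with -1.58. CCND1 had -0.28 and CCND2 -0.40. Among other S genes 11 of 15 were lower and 0 higher, with the licensing inhibitor GMNN lowest at -1.47. Among other G2/M genes 3 of 21 were lower and 0 higher, from the condensin subunit SMC2 (-0.82) to HMGB2 (0.26), with PLK1 at 0.01. CDKN1A had 0 UMIs in MYOG+ cells and 10 in PAX7+MYOG- cells.

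The size of the MYOG contrast varied with how strongly cells carried MYOG. Cells with 1 MYOG UMI had 1438 CPM (1313 to 1572) of S genes and 3577 CPM (3378 to 3785) of G2/M genes (748 cells), cells with 2 or 3 had 843 (698 to 1010) and 2937 (2660 to 3235; 311 cells), and cells with 4 or more had 339 (155 to 643) and 1281 (887 to 1790; 59 cells). At E10 both lists were thus lower at each step, and intervals of neighbouring classes did not overlap. The median before thinning was 1265, 1510 and 1813 UMIs in these classes, so that the cells with most MYOG were also the deepest. With at least 2 UMIs required of MYOG and also of PAX7, the ratio of MYOG+ to PAX7+MYOG- cells was -1.47 for S and -0.62 for G2/M. Both groups changed under this setting, and the part of each was not tested. Requiring 2000 UMIs per cell had the opposite effect, with -0.22 (-0.46 to 0.02) for S and -0.0057 (-0.15 to 0.14) for G2/M. Weighting the PAX7+MYOG- cells to the UMIs per cell of the MYOG+ cells left -0.70 and -0.25.

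Contractile muscle genes and connective tissue genes moved with this contrast. Contractile genes were at 7951 CPM in MYOG+ cells (12 of 13 with a UMI) and 414 in PAX7+MYOG- cells (13 of 13), and connective tissue genes at 825 and 1306 CPM (8 of 8 in both). Their part in the result was not tested, and leaving out cells with both a connective and a muscle marker kept both ratios within their intervals. At E6, where only 54 cells were MYOG+, the ratios were -0.77 (-1.43 to -0.17) for S and -0.89 (-1.38 to -0.43) for G2/M. Of members, PCNA had -1.11, UHRF1 -0.34, KPNA2 -1.02, TOP2A -0.85 and CDK1 -0.23 there, and BIRC5, the survivin gene, was lowest at -2.42 (-7.79 to 0.24) on 1 UMI in MYOG+ cells. CENPF and TPX2 both had -0.75. E6 cells with 1, with 2 or 3, and with 4 or more MYOG UMIs numbered 26, 20 and 8. Their G2/M genes were at 1795, 2222 and 833 CPM and their S genes at 1282, 1111 and 278 CPM. All intervals of these E6 classes overlapped within each list.

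**Figure D5:**
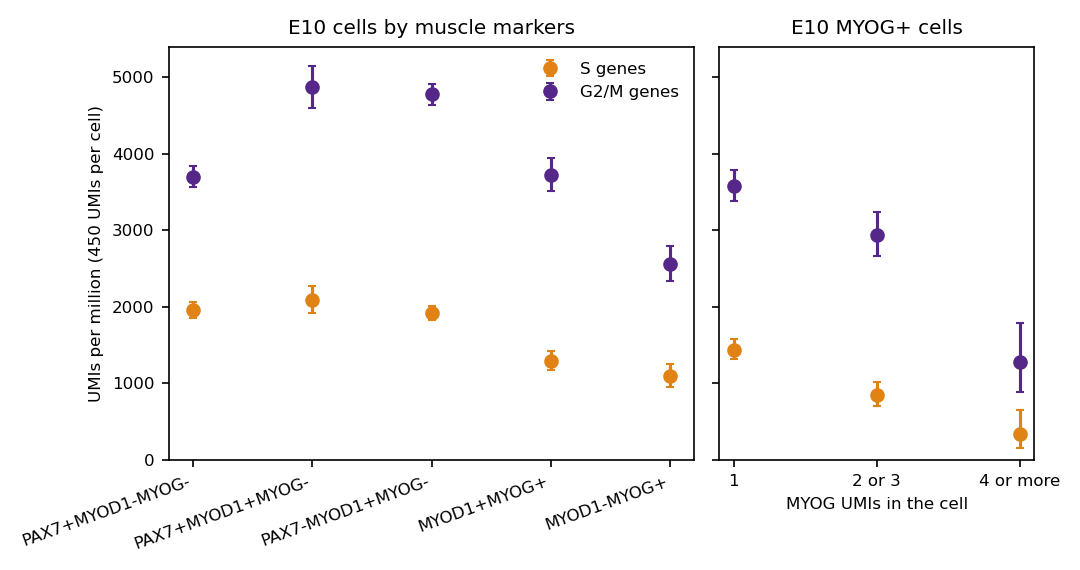
Summed level of S and G2/M genes in CPM at 450 UMIs per cell in E10 cells by combinations of muscle markers (left) and in MYOG+ cells by their number of MYOG UMIs (right). Bars are exact Poisson 95% intervals. The G2/M level is 4869 and 4776 in MYOD1+MYOG- states and 2555 in MYOD1-MYOG+ cells, and it goes from 3577 to 1281 with more MYOG UMIs.

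Distal mesenchyme was compared with the other PRRX1+ cells at each stage. At E4 PRRX1+HOXD13+ cells had 2975 CPM (2698 to 3272) of S genes against 2487 (2417 to 2559) in PRRX1+HOXD13- cells, and 6695 (6276 to 7134) of G2/M genes against 4657 (4561 to 4755). The log2 ratios were 0.26 (0.11 to 0.40) and 0.52 (0.43 to 0.62). AURKA was at 218 CPM in HOXD13+ and 101 in HOXD13- cells (1.10), KIF23 at 155 and 82.6 (0.90) and CDC20 at 274 and 150 (0.87). The lower end was BIRC5 with -0.18, the spindle gene HMMR with 0.03 and the spindle kinesin KIF11 with 0.11. In the S list CHAF1B (1.20), CDC6 (0.94) and RRM1 (0.56) were highest and BRIP1 (-1.87, -7.20 to 0.68, on 1 UMI in HOXD13+ cells), CDC45 (-0.23) and MCM2 (-0.17) lowest. Of 21 G2/M genes 7 were at least 1.5-fold higher and 0 lower, and of 14 S genes 1 was higher and 1 lower, beside 11.0% higher and 17.8% lower of all 5104 genes. The median was 0.21 for S, 0.52 for G2/M and 0.01 over all genes.

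The E4 difference was smaller between cells matched on depth, and the S ratio did not stay above 0 with every setting. It was -0.47 (-1.43 to 0.34) with markers called in the thinned UMIs, an interval that includes 0. With a minimum of 2000 UMIs it was -0.026. HOXD13+ cells had a median of 5469 UMIs before thinning and HOXD13- cells 3623. When HOXD13- cells were weighted to the UMIs per cell of the HOXD13+ cells, the ratio was 0.12 for S and 0.040 for G2/M. With all UMIs used in place of 450, 1 G2/M gene was past 1.5-fold in place of 7, beside 4.26% of all genes. Cartilage genes were at 127 CPM in HOXD13+ cells (4 of 7 with a UMI) and 235 in HOXD13- cells (5 of 7), and their part was not tested. At 450 UMIs per cell 11.0% of all genes were at least 1.5-fold higher and 17.8% lower in HOXD13+ cells. Other lists in this contrast had 8 of 26 other G2/M genes higher and 1 lower (from ECT2 at -0.99 to the cytokinesis gene ANLN at 1.12), 1 of 20 other S genes higher and 1 lower (GMNN at -0.96 to POLA1 at 0.87), 0 of 7 cyclin and E2F genes past the fold (E2F1 at -0.18 to CCND2 at 0.24), and 0 of 7 exit genes higher and 1 lower (RBL1 at -1.95, -7.28 to 0.59, to the retinoblastoma gene RB1 at 0.33).

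At E6 the ratios were 0.47 (0.33 to 0.60) for S and 0.38 (0.27 to 0.49) for G2/M. Here 4 of 9 S genes (MCM2, MCM3, MCM4 and MCM6) and 5 of 18 G2/M genes were at least 1.5-fold higher and 0 of either lower, beside 6.55% higher and 6.82% lower of 3387 genes. The median was 0.58 for S, 0.35 for G2/M and 0.06 over all genes. MCM2 was at 226 CPM in HOXD13+ and 124 in HOXD13- cells, a ratio of 0.86 (0.42 to 1.30), MCM3 had 0.70 and E2F8 0.65 on 20 UMIs, whereas MCM5 had 0.36, RRM1 0.31 and PCNA 0.19. In the G2/M list NUF2 (1.15), CENPA (0.88) and CDC20 (0.87) were highest and HMMR (-0.35), KIF23 (-0.41) and TTK (-0.79) lowest, the last 3 with intervals that included 0. Median UMIs were 3084 and 2218, and with UMIs per cell matched the ratio was 0.28 for S and -0.0047 for G2/M. At E10 the ratios were -0.14 (-0.37 to 0.08) and -0.15 (-0.30 to 0.01), and neither interval left out 0. Haemoglobin genes were at 3337 CPM in HOXD13+ cells (4 of 7 with a UMI) and 1298 in HOXD13- cells (6 of 7) at E10, and cartilage genes at 362 (6 of 7) and 103 CPM (7 of 7), and their part was not tested. There CLSPN, the claspin gene, E2F8 and MCM6 were at the upper end of the S list (0.49, 0.37 and 0.32), and CDC6, UHRF1 and MCM3 at the lower end (-0.62, -0.60 and -0.56). In the G2/M list TTK, KPNA2 and CENPF were highest (0.26, 0.24 and 0.21) and HMMR, KIF11 and NUF2 lowest (-1.87, -0.87 and -0.82). The HMMR and CDC6 values rest on 1 UMI each in HOXD13+ cells, with intervals of -7.19 to 0.66 and -5.97 to 1.98.

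Cells with tendon and irregular connective tissue markers were compared in the same way. At E4, 667 of 800 SCX+ cells and 108 of 141 OSR1+ cells were also PRRX1+HOXD13-, near the share of all cells (4249 of 5235). This overlap therefore does not bear on the tissue names. TNMD had 0 UMIs in both groups at E4, so the names are not settled there. TNMD did not separate the groups at E6 either, at 7.27 CPM in SCX+ and 6.61 in OSR1+ cells, on 2 and 1 UMIs. At E10 it was at 737 and 118 CPM. SCX+OSR1- over OSR1+SCX- cells had a log2 ratio for the G2/M genes of -0.60 (-0.76 to -0.43) at E4, 0.17 (-0.06 to 0.40) at E6 and -0.17 (-0.28 to -0.06) at E10. For the S genes it was 0.17 (-0.09 to 0.45), 0.11 (-0.17 to 0.39) and -0.25 (-0.42 to -0.09). At E4 the OSR1+SCX- group had 118 cells with a median of 4662 UMIs, beside 777 cells and 4154 UMIs, and with UMIs matched the G2/M ratio was -0.48. At E10 both lists were lower in SCX+OSR1- cells, but the G2/M ratio was 0.023 with markers called in the thinned UMIs and the S ratio 0.012 with a minimum of 2000 UMIs. Haemoglobin genes were at 668 CPM in SCX+ cells (5 of 7 with a UMI) and 1852 in OSR1+ cells (6 of 7) at E10, and endothelial genes at 4.30 (2 of 5) and 75.2 CPM (4 of 5). Their part in the result was not tested.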

How the data were processed

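Single-cell RNA was counted in 3 forelimb libraries, 1 per stage, with the embryos of a stage pooled. The authors deposited unnormalised UMI counts for all barcodes, and their notes name Cell Ranger 3.0.2, STAR and GRCg6a. Feature and barcode names were used as given in the deposited tables, and 4 listed members have no row.

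Barcodes with at least 1000 (E4), 700 (E6) or 450 (E10) UMIs were taken as cells. No doublet caller was run; leaving out the 5% of cells with the most UMIs, or cells with a connective and a muscle marker, served as alternatives. Each cell was thinned at random, with a fixed seed, to 450 UMIs without replacement. UMIs were summed per gene or list over cells of a group and divided by all UMIs of these cells. Levels have exact Poisson intervals, shares exact binomial (Clopper-Pearson) intervals and ratios exact conditional binomial intervals, all at 95% and for counting error only. Intervals of levels and ratios leave out the spread between cells and are too narrow where members are clustered in cells. There are no replicate libraries, hence no test. A gene was counted as higher or lower at 1.5-fold, with at least 50 UMIs in both groups together, and ratios of members in cell groups are given from 20 UMIs. On simulated counts for E6 over E4 (200 genes changed by 2.5-fold), 200 were recovered, and 244 of 4494 other genes passed 1.5-fold. The simulated cells of a stage shared the same profile, and only well counted genes were changed, so that recovery was easy. Clustering of members in cells was not simulated.

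Named members were 12 central genes where present, and the 3 highest and 3 lowest ratios of each list; of other lists, counts, both ends (1 is not reported here) and 12 fixed genes where present. KPNA2, CENPF, CENPE, SMC4, CENPA, CDC45 and UHRF1 among cells, and members past 1.5-fold, were named after their values were seen. The members, lists and comparisons were chosen with earlier results of these data known. Matching on UMIs per cell (5 bins) and the classes of MYOG UMIs were chosen after seeing the data. Scripts ran in Python 3.11.15 (scipy 1.17.1 for intervals, numpy 2.4.6, pandas 2.3.3, matplotlib 3.10.9). Positions of genes are not given, since no GRCg6a annotation was used here.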

Additional observations from a re-analysis of the deposited data

Results flagged for a closer look

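The contrast between PRRX1+HOXD13+ and PRRX1+HOXD13- cells had opposite signs at different stages. The log2 ratio of the S genes was 0.26, 0.47 and -0.14 in stage order, and that of the G2/M genes 0.52, 0.38 and -0.15. The difference between stages was not tested, and the E10 intervals include 0. With UMIs per cell matched, the G2/M ratio was 0.040 at E4 and -0.0047 at E6. With markers called in thinned UMIs the E4 ratio of the S genes was -0.47, with an interval that includes 0. The contrast of SCX+OSR1- over OSR1+SCX- cells changed sign as well, with 0.17, 0.11 and -0.25 for the S genes and -0.60, 0.17 and -0.17 for the G2/M genes at E4, E6 and E10. This difference was not tested either, and the E6 intervals and the E4 interval of the S genes include 0.

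Members were also found outside cells. In barcodes with 10 to 100 UMIs, which no comparison uses, the S genes were at 2757, 1426 and 1278 CPM in stage order, and the G2/M genes at 4585, 2084 and 2687 CPM. The order of the stages was the same as in cells.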

How the results depend on the processing

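Of 92 alternative values for the 8 main list ratios, 57 stayed within the 95% interval of the reported value, and 35 did not. Over all 28 list ratios, 110 of 324 alternative values fell outside the interval and 23 had the other sign. The cause of these shifts was not tested. Ratios are log2, in the order E6 over E4, E10 over E6, MYOG+ over PAX7+MYOG- (E10) and HOXD13+ over HOXD13- (E4). With a cell minimum of 1000 UMIs, E10 over E6 was 0.093 (S) and 0.59 (G2/M), and MYOG+ -0.45 and -0.16. With a minimum of 2000, E6 over E4 was -0.55 and -0.76, E10 over E6 0.20 and 0.94, MYOG+ -0.22 and -0.0057, and HOXD13+ -0.026 for S, and the G2/M ratio of E10 over E4 turned to 0.19. With at most 10% mitochondrial UMIs, E6 over E4 was -0.61 and -0.97, E10 over E6 -0.19 for S and MYOG+ -0.58 for S. With all UMIs, E6 over E4 was -0.62 and -0.99, MYOG+ -0.15 and HOXD13+ 0.39 for G2/M. Thinning to 1000 UMIs per cell also left out cells below 1000 UMIs, the same cells as with the minimum of 1000. E6 over E4 was then -0.71 for S, E10 over E6 0.085 and 0.61, and MYOG+ -0.54 and -0.14. With 2 marker UMIs, MYOG+ was -1.47 and -0.62, and HOXD13+ 0.35 for G2/M. With markers called in thinned UMIs, MYOG+ was -0.93 and -0.71, and HOXD13+ -0.47 and 0.40. Without haemoglobin, mitochondrial and ribosomal protein genes in the totals, E6 over E4 was -0.68 and -0.94. Without PCNA, E10 over E6 was -0.012 for S. With UMIs per cell matched, an alternative chosen after seeing the data, HOXD13+ was 0.040 for G2/M. Of 107 ratios of single members with all UMIs, 101 stayed in their interval. The limit of 200 UMIs per gene left 8 of 10 S genes lower from E4 to E6. The share of all genes lower was 13.9% with the limit of 50 UMIs, and the one with 200 is not reported here. The share of all genes higher moved from 12.7% to 8.38%. With all UMIs 1 G2/M gene in place of 7 was higher in HOXD13+ cells at E4. No paired analysis was possible because each stage has 1 library. With 1 library per stage, stage and library cannot be told apart. Depth also limits the comparisons: E10 cells have the fewest UMIs, shallow cells are missed by every marker, and genes under 50 UMIs could not be counted.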

Other observations

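Cell groups that the report does not compare also differed in mitotic RNA. UMIs per cell were not matched between these groups, and the part of depth in their levels was not tested. At E10 Schwann and neural crest cells with SOX10 (289 cells) had 3014 CPM (2723 to 3328) of G2/M genes and cells with the chondrocyte factor SOX9 (237 cells) 2991 (2672 to 3338), whereas cells with the cartilage matrix gene ACAN (222 cells) had 2082 (1809 to 2385). The 3703 cells with the tendon gene TNMD had 2803 (2723 to 2885), above the 2072 of SCX+ cells. At E4, 346 SOX9+ cells had 6243 CPM (5856 to 6648) at a median of 5058 UMIs, and at E6, 290 such cells had 1923 (1693 to 2177). The 25 E10 cells with at least 10% contractile UMIs had 178 CPM of G2/M and 267 CPM of S genes, on 2 and 3 UMIs.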
